A study of Mus musculus with 8 samples.

Results

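Adipocyte progenitors are the fibroblast-like cells of the fat pad stroma from which new adipocytes form, and they are usually recognised by surface proteins rather than by a single lineage gene. PDGFRA, the alpha receptor for platelet-derived growth factors, marks the lineage as a whole, and CD34 and the Ly6 protein Sca-1 (the product of Ly6a) are used with it to sort the cells. In mouse fat, cells with DPP4, PI16 and LY6C1 lie in the connective tissue between lobules and are regarded as the early, least committed end of the lineage, whereas DLK1 is the classical inhibitor of adipogenesis in cultured preadipocytes. The 10 genes described here were Pdgfra, Cd34, Dpp4, Pi16, Ly6a, Ly6c1, Dlk1, Mfap5, Thy1 and Cd248. They were chosen by name as markers of progenitors and fibroblasts, out of 16593 genes with a probe on the array, and all probes annotated to them were taken.

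Gene expression was measured in epididymal (gonadal) white adipose tissue of male C57BL6/J mice aged 4 months, on 1 Illumina mouse BeadChip array per sample. By the labels, angiotensinogen was overexpressed in the white fat of 4 samples (Agt Tg), and the other 4 were wild type (Wt). Per the paper, the transgene was driven by the aP2 promoter, which is active in macrophages as well as adipocytes, and both groups ate a low fat diet. Agt itself was not higher in the Agt Tg arrays (7.58 ± 1.19 against 8.14 ± 0.57, mean log2 intensity ± SD, n = 4 each, exact two-sided permutation p = 0.4), so that directions here compare the arrays by their labels. Of 25696 probes, between 11253 and 12284 were detected per array, and the 11624 detected on at least 4 of 8 arrays, covering 8285 genes, were tested. Of 14 listed white adipocyte markers 10 were tested, with a mean log2 intensity of 11.60 to 12.13 per array. All tested ones were detected on all 8 arrays except Retn, which was detected on 2 Agt Tg and 3 Wt arrays. Nrip1 was detected on no array. The labels do not state whether the samples are separate mice, and p-values therefore measure only the spread between these samples, which may be technical.

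Of the 10 genes, 9 had at least 1 annotated probe and 8 were detected well enough to be compared. Ly6a was matched to no probe and is not analysed here, and the Dlk1 probe was not detected above background on 7 of the 8 arrays. Pdgfra, Cd34, Dpp4, Pi16, Ly6c1, Mfap5, Thy1 and Cd248 were detected on all 8 arrays at detection p under 0.05. No member passed in limma after adjustment over all probes (background 0% of the 8285 genes). At unadjusted p under 0.05, 1 of the 8, Ly6c1, differed and was lower in Agt Tg, beside 9.28% of all genes in either direction, 5.35% in the lower and 3.93% in the higher direction. The split of directions depended on the scaling, as 485 probes were higher and 660 lower at this threshold, against 80 and 1193 with median scaling. It was also the 1 member whose groups did not overlap, beside 6.36% of all genes in either direction and 3.31% in the lower. A share of 1 in 8 is near these backgrounds and is no result about the genes as a set. Log2 differences, always Agt Tg minus Wt, were positive for 4 members and negative for 4 (52% and 48% of all genes), with a median of 0.033 beside 0.014 over all genes tested. In whole tissue a lower level can mean fewer cells of a type or less RNA per cell, and these cannot be told apart.

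**Figure D1:**
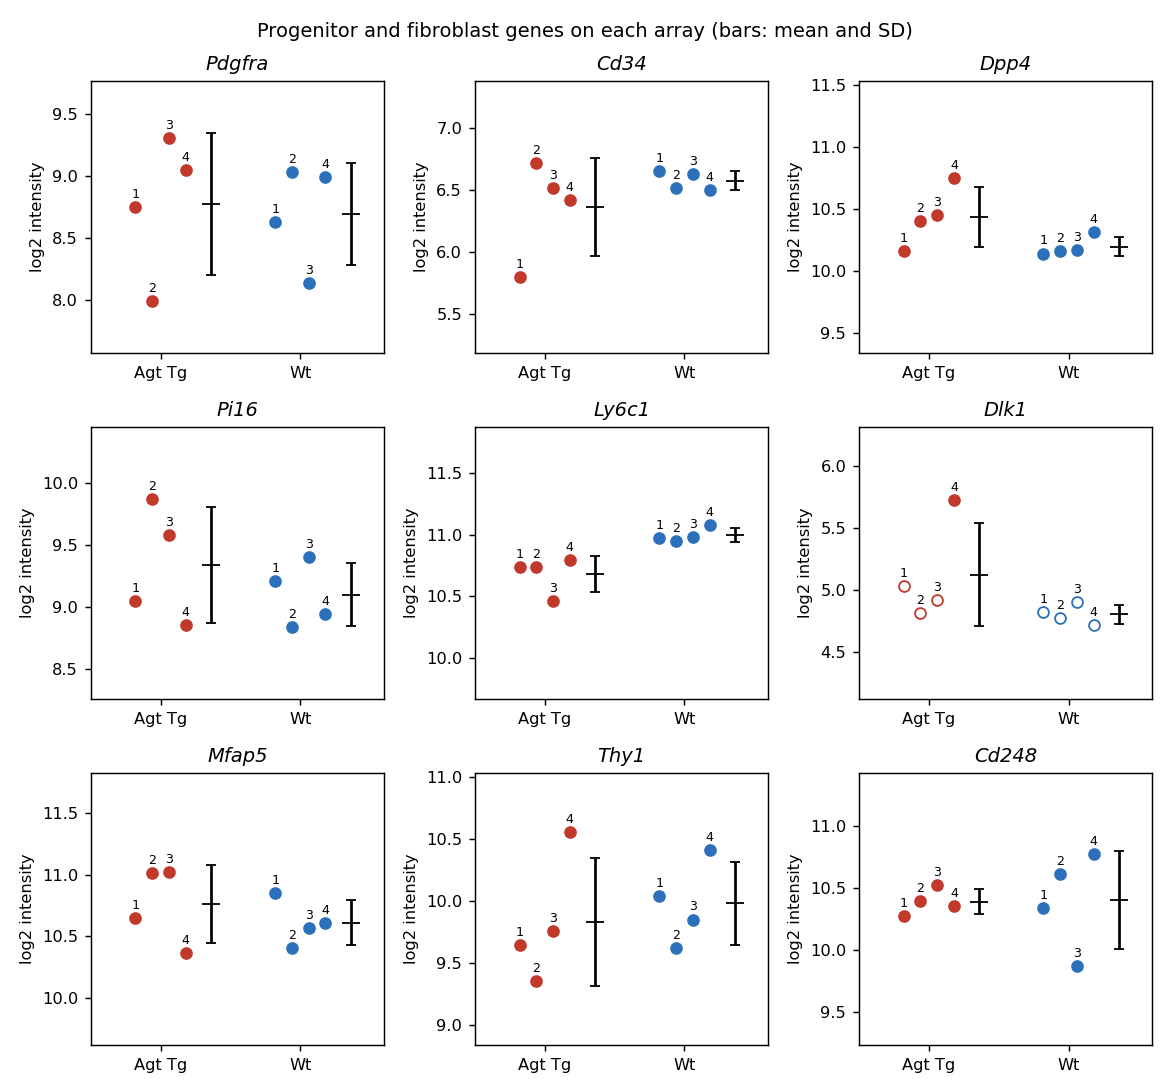
Log2 normalized intensity (vertical axes, each spanning the same number of log2 units) of the 9 genes with a probe on each Agt Tg (red) and Wt (blue) array, numbered by replicate, with the mean and SD of each group in black and open circles where the probe was not above background. Ly6c1 is the 1 gene with all 4 Agt Tg arrays below all 4 Wt arrays, and Pdgfra, Pi16 and Thy1 spread over more than 1 log2 unit within the Agt Tg group.

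Ly6c1 encodes a small glycolipid-anchored Ly6 protein of early progenitors that is also found on endothelial cells, monocytes and lymphocytes. Its log2 intensity was 10.74, 10.74, 10.46 and 10.79 on Agt Tg replicates 1 to 4 and 10.97, 10.95, 10.98 and 11.08 on Wt replicates 1 to 4. Every Agt Tg array thus lay below every Wt array after normalization, with Agt Tg replicate 3 the lowest. The raw intensities, at 1375 to 1962 and 1780 to 2851, did overlap. The group means were 10.68 ± 0.15 and 10.99 ± 0.06 (SD, n = 4), a log2 difference of -0.31 ± 0.13 (SE) or 1.24-fold, with a 95% interval from -0.60 to -0.03. The exact two-sided permutation test gave p = 0.0286, the smallest that 4 arrays against 4 allow, and the limma adjusted p was 0.48. The limma unadjusted p was 0.0321. It rose to 0.11 when Agt Tg replicate 3 was left out, to 0.0824 when Wt replicate 4 and to 0.0523 when Wt replicate 1 was, and to 0.064 if no trend was fitted. Its adjusted p ran from 0.287 to 0.75 over the alternatives that give one. Ly6c1 varied little within groups, its pooled SD of 0.11 standing at the 2.4th percentile of all genes tested.

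The Ly6c1 gene lies on mouse chromosome 15 beside Ly6c2, a closely related neighbour that monocytes express. The array annotation names Ly6c1 alone for the probe, no probe was annotated to Ly6c2, and the probe's letters are not in the sources used here, so a part of the signal from Ly6c2 transcripts is possible and was not tested. The stretches just upstream of both genes are shown because they make this relationship visible. They were taken from RefSeq (GRCm38.p6), 5′ to 3′ on the minus strand, and end where the annotated gene begins. Capitals mark the longest run that both share, of 15 bases.
Ly6c1, chr15:75048921-75049087, minus strand: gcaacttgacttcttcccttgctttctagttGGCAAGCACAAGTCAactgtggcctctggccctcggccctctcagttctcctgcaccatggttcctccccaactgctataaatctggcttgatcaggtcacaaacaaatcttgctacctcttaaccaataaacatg
Ly6c2, chr15:75112067-75112221, minus strand: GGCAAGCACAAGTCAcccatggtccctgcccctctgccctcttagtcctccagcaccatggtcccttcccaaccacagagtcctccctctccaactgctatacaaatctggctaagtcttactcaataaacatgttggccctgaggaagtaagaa
In a global alignment of these stretches of 167 and 155 bases, 134 bases were paired and the rest fell in gaps. Of the 134 paired bases 99 (73.9%) were identical. On either strand the shared run occurred in 3 of the 32851 start regions of the table (0.00913%). These were Ly6c1 and Ly6c2, from which the run was chosen, and Ly6a2. This describes the 2 loci and says nothing of their control or of what the probe reads.

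Because endothelial cells, monocytes and lymphocytes also carry LY6C1, the markers of endothelial cells, lymphocytes and macrophages are given beside it. Monocytes had no list of their own. Over all genes tested, 48% were lower in Agt Tg, and 5.35% were lower at unadjusted p under 0.05. Of the 15 endothelial markers listed 14 were tested, of which 11 were lower and 3 higher in Agt Tg, 1 at unadjusted p under 0.05. Their mean log2 intensity ran from 9.10 to 9.54 on Agt Tg arrays and from 9.41 to 9.63 on Wt arrays. Ly6c1 and this mean were related across the 8 arrays by Pearson's r = 0.74 (exact permutation p = 0.0325) but by Spearman's rho = 0.31 (exact permutation p = 0.462). The adjusted p of r was 0.793 over the 64 relations of members with cell type lists. With group means removed r was 0.68, at 0.81 within Agt Tg and -0.05 within Wt. Over both groups r was 0.34 without Agt Tg replicate 3 and Wt replicate 4, so that the relation rested on those arrays. Of 14 T and NK cell markers 7 were tested and all 7 were lower (2 at unadjusted p under 0.05, beside 5.35% of all genes), with a mean of 5.68 to 6.76 in Agt Tg and 6.21 to 7.00 in Wt, and Cd8a and Gzma were detected on no array. Of 10 B and plasma cell markers 5 were tested and all 5 were lower (2 at unadjusted p under 0.05, beside 5.35% of all genes), with a mean of 4.87 to 6.78 in Agt Tg and 6.25 to 8.31 in Wt, and Pax5 was detected on no array. With the mean of the B and plasma cell markers Ly6c1 had r = 0.59 (exact permutation p = 0.128) and rho = 0.76 (exact permutation p = 0.0368), and with that of the T and NK cell markers r = 0.56 (exact permutation p = 0.144) and rho = 0.71 (exact permutation p = 0.0576). None passed over the 64 relations (adjusted p = 0.793 for both r and 0.843 for both rho), and with group means removed r was 0.20 and 0.26. Without Agt Tg replicate 3 and Wt replicate 4 r was 0.60 and 0.42. Of 16 macrophage markers 13 were tested, 7 higher and 6 lower in Agt Tg, 1 at unadjusted p under 0.05. Their mean ran from 8.36 to 9.85 in Agt Tg and from 8.87 to 9.66 in Wt. With it Ly6c1 had r = -0.11 (exact permutation p = 0.799, adjusted p = 0.919) and rho = -0.095 (exact permutation p = 0.84). With group means removed that r was -0.46. The part of any of these cells in the Ly6c1 difference was not tested.

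**Figure D2:**
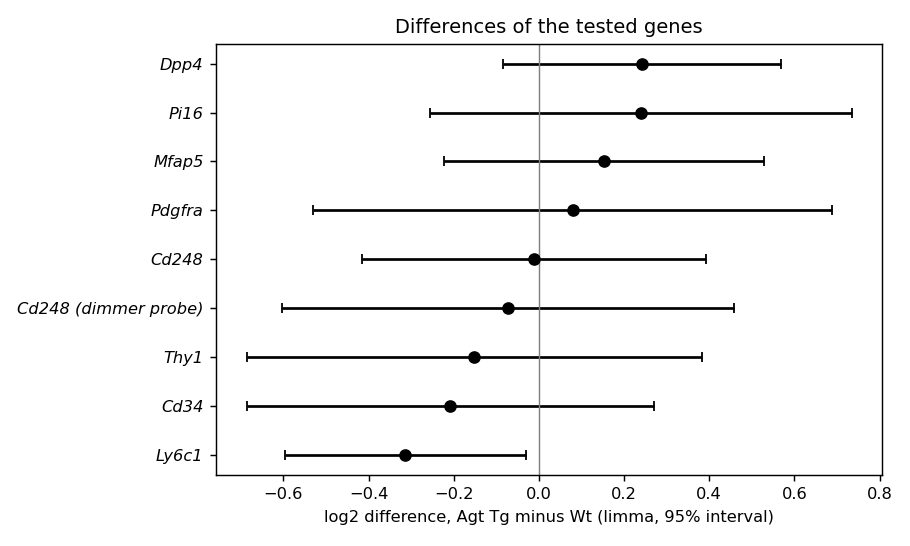
Log2 difference, Agt Tg minus Wt, of each tested probe of the members (points) with its 95% interval from limma (bars) over 4 arrays a group. Intervals of all probes other than that of Ly6c1 (-0.60 to -0.03) include 0.

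The other early progenitor markers, Dpp4, Pi16 and Mfap5, had positive differences whose intervals included 0. Dpp4 encodes a membrane peptidase that clips incretins and chemokines. It measured 10.16, 10.40, 10.45 and 10.75 on Agt Tg replicates 1 to 4 and 10.14, 10.16, 10.17 and 10.31 on Wt replicates 1 to 4. Of the Agt Tg arrays 3 exceeded the highest Wt array, while replicate 1 lay among the Wt arrays, which differed by only 0.08 (SD). The difference was 0.24 ± 0.15 (SE, 95% interval -0.09 to 0.57), with an exact two-sided permutation p of 0.114 and a limma adjusted p of 0.61.

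Pi16 encodes a secreted or membrane-bound peptidase inhibitor that marks a population of fibroblasts shared by many tissues. Its log2 intensity was 9.05, 9.87, 9.58 and 8.85 on the Agt Tg arrays in order of replicate, and 9.21, 8.84, 9.40 and 8.94 on the Wt arrays. Agt Tg replicates 2 and 3 stood above all other arrays, and replicates 1 and 4 lay within the Wt range. The difference was 0.24 ± 0.23 (SE, 95% interval -0.26 to 0.73), exact two-sided permutation p = 0.371, limma adjusted p = 0.755. It was 0.061 without Agt Tg replicate 2.

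Mfap5 encodes a glycoprotein of elastic microfibrils. It measured 10.65, 11.01, 11.02 and 10.37 on the Agt Tg arrays and 10.85, 10.41, 10.57 and 10.61 on the Wt arrays, in order of replicate. The arrays high in Pi16, Agt Tg replicates 2 and 3, were again the highest, and Agt Tg replicate 4 was the lowest of all 8. The difference was 0.15 ± 0.17 (SE, 95% interval -0.22 to 0.53), exact two-sided permutation p = 0.429, limma adjusted p = 0.797.

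Pdgfra, the receptor that defines the lineage, was the most variable of the members. Its log2 intensity was 8.75, 7.99, 9.31 and 9.05 on Agt Tg replicates 1 to 4 and 8.63, 9.03, 8.14 and 8.99 on Wt replicates 1 to 4. Both groups held 1 low array, Agt Tg replicate 2 and Wt replicate 3, and otherwise lay between 8.63 and 9.31. The pooled SD within groups of 0.50 stood at the 88.8th percentile of all genes tested, whose median was 0.29. The difference was 0.079 ± 0.28 (SE, 95% interval -0.53 to 0.69), exact two-sided permutation p = 0.8, limma adjusted p = 0.951. Single arrays turned its direction, as it was -0.11 if Wt replicate 3 was omitted, -0.099 if Agt Tg replicate 3 and -0.013 if Agt Tg replicate 4, while omitting Agt Tg replicate 2 gave 0.34. Median scaling gave -0.075. On macrophage markers, of which 13 of 16 were tested, Agt Tg replicate 2 was the lowest array (mean 8.36). Wt replicate 3 stood at 9.32 there, within the Wt range of 8.87 to 9.66. Of 8 mast cell markers 6 were tested, and their mean was lowest in each group on these 2 arrays (6.69 and 6.03). Pdgfra had r = 0.40 with the macrophage mean (exact permutation p = 0.319) and 0.60 with the mast cell mean (exact permutation p = 0.119). The adjusted p was 0.793 for both, and without these 2 arrays r was -0.18 and -0.17. The part of these cells was not tested.

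Cd34 encodes a sialomucin of progenitors, endothelial cells and blood stem cells. The probe was dim, with raw intensities of 151 to 259. Its log2 intensity was 5.80, 6.72, 6.52 and 6.42 on the Agt Tg arrays and 6.65, 6.52, 6.63 and 6.50 on the Wt arrays, in order of replicate. The Wt arrays were tight (SD 0.08, n = 4), and Agt Tg replicate 1 alone was low. The difference was -0.21 ± 0.22 (SE, 95% interval -0.69 to 0.27), exact two-sided permutation p = 0.429, limma adjusted p = 0.78. It shrank to -0.02 without Agt Tg replicate 1 and to -0.083 on the authors' log2 values.

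Thy1, or CD90, is a glycolipid-anchored protein of fibroblasts and of T cells. It measured 9.64, 9.35, 9.76 and 10.56 on Agt Tg replicates 1 to 4 and 10.04, 9.62, 9.85 and 10.41 on Wt replicates 1 to 4. Replicate 4 was the highest array of either group. The difference was -0.15 ± 0.25 (SE, 95% interval -0.69 to 0.38), exact two-sided permutation p = 0.657, limma adjusted p = 0.867, and it was 0.0069 without Agt Tg replicate 2. Across the 8 arrays Thy1 was related to the mean of the 5 tested B and plasma cell markers by r = 0.82 (exact permutation p = 0.0122) and rho = 0.79 (exact permutation p = 0.0279). Neither passed over the 64 relations (adjusted p = 0.779 and 0.843), although r was 0.88 with group means removed and 0.93 without Agt Tg replicate 4 and Wt replicate 4. It was 0.64 without the arrays farthest on the marker mean, Agt Tg replicate 2 and Wt replicate 4. With the mean of the 7 tested T and NK cell markers, r was 0.57 (exact permutation p = 0.148, adjusted p = 0.793) and rho was 0.52 (exact permutation p = 0.197). Here r was 0.77 without the arrays farthest on Thy1, but -0.02 without those farthest on the marker mean, again Agt Tg replicate 2 and Wt replicate 4, so that it rested on those 2.

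Cd248 encodes endosialin, a membrane protein of stromal fibroblasts and pericytes, and had 2 probes. The brighter measured 10.28, 10.40, 10.53 and 10.36 on the Agt Tg arrays and 10.34, 10.62, 9.87 and 10.78 on the Wt arrays, in order of replicate. The Agt Tg arrays lay inside the range of the Wt arrays, which Wt replicates 3 and 4 set. The difference was -0.012 ± 0.19 (SE, 95% interval -0.42 to 0.39), exact two-sided permutation p = 0.971, limma adjusted p = 0.99. Its sign changed when any of 3 arrays was omitted, to 0.024 for Agt Tg replicate 1, 0.061 for Wt replicate 2 and 0.11 for Wt replicate 4. The dimmer probe measured 7.05, 7.16, 7.55 and 7.80 in Agt Tg and 6.86, 7.52, 7.67 and 7.79 in Wt, a difference of -0.072 ± 0.25 (SE, limma adjusted p = 0.946). The probes ordered the Wt arrays differently, since Wt replicate 3 was the lowest on the brighter probe and replicate 1 on the dimmer.

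Dlk1 encodes a transmembrane EGF-repeat protein that preadipocytes shed and lose as they differentiate. Its raw intensity was 131, 135, 139 and 166 on Agt Tg replicates 1 to 4 and 151, 121, 136 and 135 on Wt replicates 1 to 4. The probe was above background on Agt Tg replicate 4 alone, with a detection value of 0.00376 against the threshold of 0.05. The detection values were 0.0539 to 0.16 on the other Agt Tg arrays and 0.108 to 0.188 in Wt. Agt Tg replicate 4 was also the highest array in Dpp4 and Thy1. Log2 intensity was 5.12 ± 0.42 in Agt Tg and 4.80 ± 0.08 in Wt (SD, n = 4). Since 3 of the 4 Agt Tg arrays were also not above background, no fold is given, and Dlk1 was not tested.

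The members did not move as a block from array to array. Of the 28 pairs among the 8 tested genes 17 had positive and 11 had negative correlations, and none passed after adjustment over the pairs, where the lowest adjusted p was 0.247. By exact permutation 1 pair reached an unadjusted p under 0.05. Pi16 and Mfap5 had r = 0.85 (exact permutation p = 0.0088, adjusted p = 0.247) and rho = 0.81 (exact permutation p = 0.0218, adjusted p = 0.61) over the 8 arrays. With group means removed r was 0.83, and without Agt Tg replicates 2 and 3, the arrays farthest from the median, it was 0.59. Pdgfra had negative r with both Pi16 and Mfap5, and neither passed after adjustment. Its r with Mfap5 was -0.25 (exact permutation p = 0.544, adjusted p = 0.898). Its r with Pi16 was -0.57 (exact permutation p = 0.141, adjusted p = 0.741) and its rho -0.48 (exact permutation p = 0.243), and r was -0.64 with group means removed. It became 0.28 without Agt Tg replicate 2 and Wt replicate 3, the arrays farthest on Pdgfra, and -0.98 without Agt Tg replicates 2 and 3, those farthest on Pi16, so that its size and sign depended on which arrays were left out. Pdgfra and Cd248 had r = 0.62 (exact permutation p = 0.099, adjusted p = 0.741) and rho = 0.48 (exact permutation p = 0.243), and r was 0.49 without the arrays farthest on Pdgfra.

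**Figure D3:**
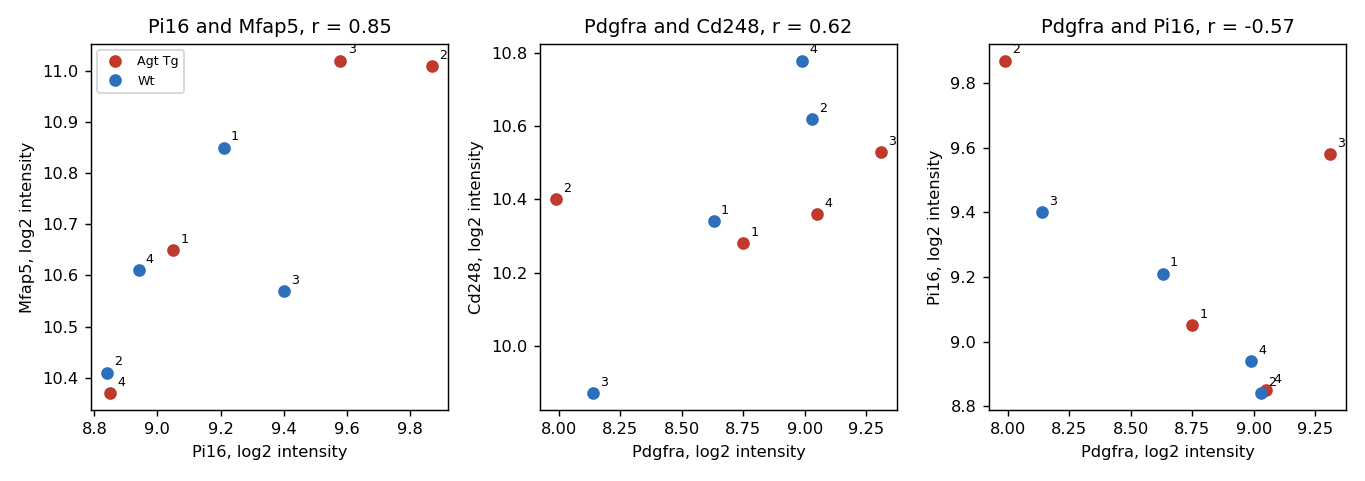
Log2 intensity of 3 pairs of members on the 8 arrays (red Agt Tg, blue Wt, numbered by replicate), with Pearson's r above each panel. Pi16 and Mfap5 (r = 0.85) were highest together on Agt Tg replicates 2 and 3, and Pdgfra was lowest on Agt Tg replicate 2 and Wt replicate 3.

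**Figure D4:**
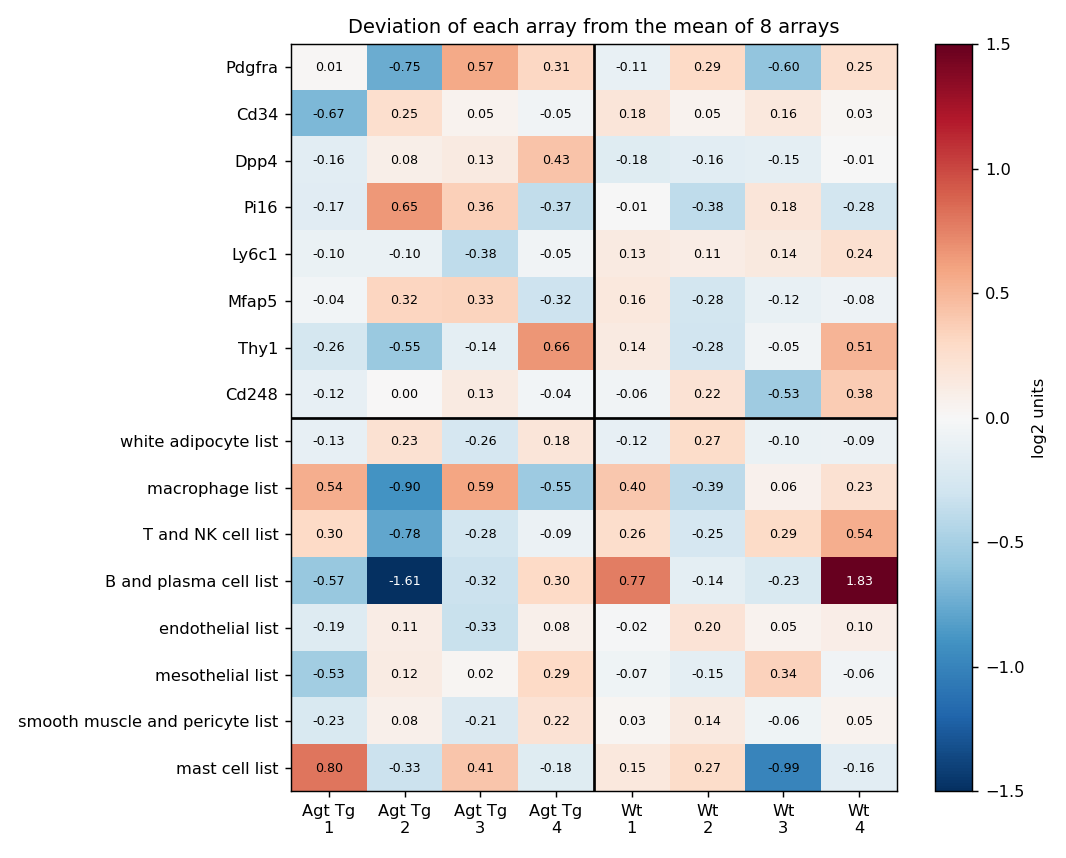
Deviation of each array (columns, by group and replicate) from the mean of the 8 arrays in log2 units, for the 8 tested members (upper rows) and the mean of each cell type marker list (lower rows), coloured from blue (lower) to red (higher). The members differ in which arrays are high, and the B and plasma cell list spans the widest range of the rows shown, from 4.87 on Agt Tg replicate 2 to 8.31 on Wt replicate 4.

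For each tested member, the genes whose values followed it most closely over the 8 arrays were sought among genes detected on all arrays, 6787 besides the member. With so many genes and 8 arrays high values arise easily, and they are given as a description. They were Ddit4l (r = 0.97) and Leprotl1 (0.96) for Pdgfra, Trib2 (r = 0.94) and Catsper2 (0.91) for Cd34, and Fam160b1 (r = 0.96) and Azin2 (0.94) for Dpp4. For Pi16 they were Olfr538 and Arih1 (r = 0.92 both), for Mfap5 Abhd18 (r = 0.94) and Ostm1 (0.93), and for Ly6c1 Nprl2 and Adal (r = 0.96 both). For Thy1 they were Fkbp11 (r = 0.96) and Rpp25l (0.94), and for Cd248 Chkb (r = 0.96) and Ecm1 (0.95). No member was among them.

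Further genes of the progenitor lineage and of fibroblasts were counted from 5 lists, and no gene of any list passed in limma after adjustment over all probes. Beside these counts, 52% of all genes tested were higher and 48% lower in Agt Tg. Of all genes 9.28% had a limma unadjusted p under 0.05, and 6.36% had groups that did not overlap. Of 18 genes that accompany Dpp4 in early progenitors 13 were tested, 7 higher and 6 lower in Agt Tg, none at unadjusted p under 0.05, with a median log2 difference of 0.06. Those of smallest p were Bmp7, a bone morphogenetic protein (0.56 ± 0.26, SE), Pcolce2, an enhancer of procollagen processing (-0.54 ± 0.26, and -0.65 on its other probe), and Uchl1, a deubiquitinase (0.41 ± 0.26). Bmp7 was detected on 3 Agt Tg arrays and 1 Wt array and differed by 0.17 on the authors' values, and Uchl1 by 0.19 on them. Bmp7 differed by 0.35 and Pcolce2 by -0.35 if Agt Tg replicate 2 was omitted, Pcolce2 by -0.34 if Wt replicate 1 was, and Uchl1 by 0.19 if Agt Tg replicate 3 was and by 0.20 with median scaling.

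Of 16 genes of committed preadipocytes 15 were tested, 12 higher and 3 lower, with a median of 0.11 and 1 at unadjusted p under 0.05. Small differences depend on the scaling, as median scaling moved the median of all genes from 0.014 to -0.12. Mature adipocytes also express several of these genes, such as Pparg, Fabp4 and Lpl, so in whole fat the count is not one of preadipocytes alone. The gene at unadjusted p under 0.05 was Icam1, an adhesion molecule of committed preadipocytes that endothelial and immune cells also carry (7.41 against 7.87, difference -0.46 ± 0.18, SE). Its groups did not overlap. Its difference was -0.30 on the authors' values and -0.28 with no background correction. Its limma unadjusted p of 0.0271 rose to 0.0592 when Agt Tg replicate 2 was omitted, to 0.0583 for Agt Tg replicate 4 and to 0.102 for Wt replicate 4. Zfp423, a zinc finger regulator of preadipocyte commitment, differed by 0.29 ± 0.18 (SE), 0.087 on its other probe, 0.17 on the authors' values and 0.11 with median scaling. The probes of Ebf2, a transcription factor of the lineage, disagreed, at 0.43 and -0.42, and the first fell to 0.26 when either Agt Tg replicate 2 or Wt replicate 1 was omitted and to 0.29 with median scaling.

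Of 12 genes of the F3-type (CD142) regulatory progenitors 11 were tested, 7 higher and 4 lower, with a median of 0.02 and 1 at unadjusted p under 0.05, Clec11a, a secreted lectin (0.41 ± 0.19, SE). Its limma unadjusted p of 0.047 rose to 0.29 with median scaling (difference 0.24) and to 0.0681 with array weights. It lay between 0.0761 and 0.142 when Agt Tg replicate 2, 3 or 4 or Wt replicate 1 or 2 was omitted, and the difference was 0.27 with no background correction. Aldh1a1, a retinaldehyde dehydrogenase, differed by -0.34 ± 0.19 (SE) and Igfbp3, a carrier of insulin-like growth factors, by 0.23 ± 0.22 (SE) and by 0.13 on the authors' values. The Igfbp3 difference was 0.058 if Wt replicate 3 was omitted, 0.39 if Wt replicate 2 was, and 0.056 with median scaling. F3 itself was detected on no array.

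General fibroblast genes had the most calls at unadjusted p under 0.05, 5 of 23 tested out of 26 listed (4 higher and 1 lower), beside 9.28% of all genes. The list as a whole was split, with 13 higher and 10 lower and a median of 0.047. Col15a1, a basement membrane collagen, was 1.40-fold higher without overlap (12.29 ± 0.19 against 11.80 ± 0.16, SD, n = 4, limma adjusted p = 0.348). With median scaling its log2 difference of 0.48 became 0.40, and its limma unadjusted p of 0.00428 became 0.0666. Fbln1, a matrix glycoprotein, was 1.75-fold lower without overlap (8.66 ± 0.15 against 9.47 ± 0.51, SD, n = 4, limma adjusted p = 0.348), whereas the log2 difference on its other kept probe was -0.012. Mfap4, a microfibril protein, was 1.91-fold higher with overlapping groups (limma adjusted p = 0.354), a log2 difference of 0.93 that was 0.50 on the authors' values. Gsn, an actin-severing protein, differed by 0.82 ± 0.33 (SE, limma adjusted p = 0.468), and Lox, the collagen cross-linking oxidase, by 0.46 ± 0.20 (SE, limma adjusted p = 0.486). The groups overlapped for both genes. Exact two-sided permutation p was 0.2 for Gsn, 0.0857 for Lox and 0.0571 for Mfap4, and 0.0286 for Col15a1 and for Fbln1. Gsn and Lox were named because the list had 5 calls, and their values under the alternatives are not given here.

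Of 17 genes for PDGF ligands and regulators of the preadipocyte state 14 were tested, 9 higher and 5 lower, with a median of 0.14 and none at unadjusted p under 0.05. Wt1, a transcription factor of visceral progenitors and of the mesothelium, differed by -0.36 ± 0.17 (SE) without overlap, and by -0.22 on the authors' values. Of 12 mesothelial markers, Wt1 among them, 9 were tested, with a mean of 7.05 to 7.87 in Agt Tg and 7.43 to 7.92 in Wt, and the part of these cells was not tested. Prrx1, a homeobox factor of mesenchyme, differed by 0.58 ± 0.37 (SE), by 0.48 and -0.049 on its other probes, and by 0.33 on the authors' values, and by 0.23 if Agt Tg replicate 3 was omitted. Ccnd1, the cyclin of early G1, differed by -0.26 ± 0.18 (SE), and by -0.0046 and -0.23 on its other probes, and it was -0.14 if Agt Tg replicate 2 was omitted and -0.40 with median scaling.

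**Figure D5:**
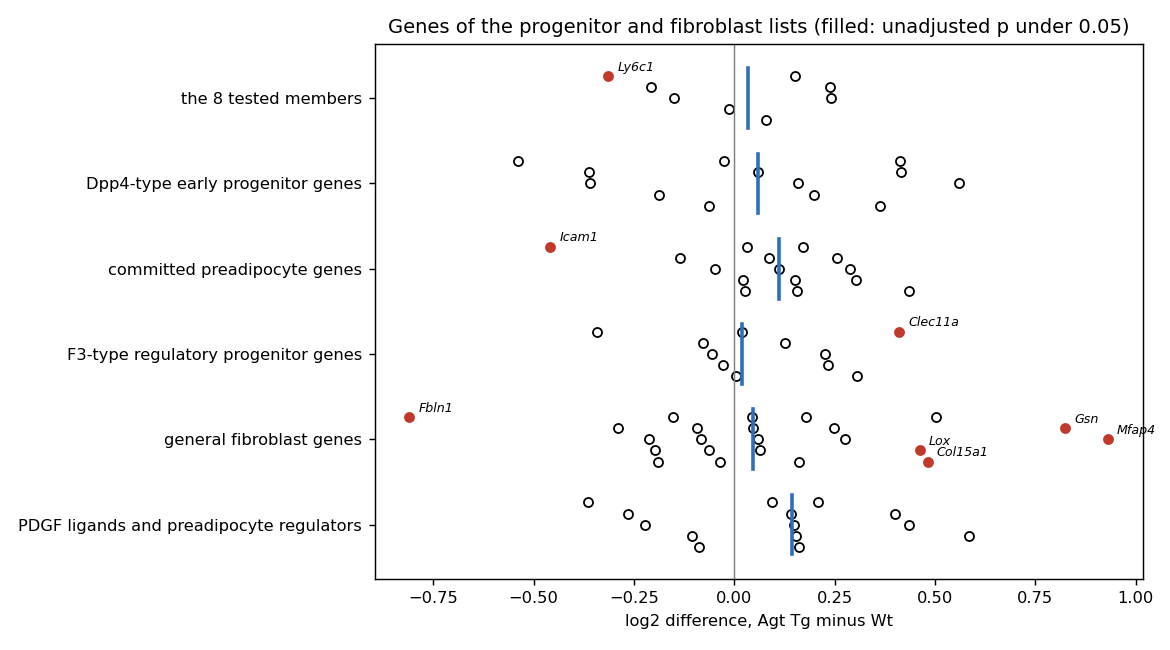
Log2 difference, Agt Tg minus Wt, of every tested gene (circles, by brightest probe) of the members and the 5 lists, filled and named at unadjusted p under 0.05, with the median of each list as a blue line and vertical offsets for legibility only. The medians lie between 0.02 and 0.14, and none of the genes passed after adjustment.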

How the data were processed

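Arrays were Illumina MouseRef-8 v2.0 BeadChips hybridised with biotin-labelled RNA. The authors deposited unnormalized probe intensity, in linear units, and beside it a detection p-value for every probe on every array. The authors also deposited log2 values, for which the submitters' processing notes name lumi (settings not given in the sources used here). These ranked probes as the intensities did (lowest rank correlation 1) and had a median of 7.11 on Agt Tg replicate 1.

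The neqc function of limma 3.58.1 (R 4.3.3) was applied to the intensities (normexp background correction with negative controls inferred from detection p, offset 16, quantile normalization). Probes with detection p under 0.05 on at least 4 arrays were kept (45.2%) and fitted with lmFit and eBayes (trend) on group, with Benjamini-Hochberg adjustment over all kept probes. The kept probe with the highest mean stood for its gene, and log2 intensities of different probes cannot be ranked. Probes were named by the platform annotation through Entrez ID (23962 of 25696 matched). Background correction makes differences of dim probes uncertain. The number of arrays limits the precision.

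Exact permutation tests used all 70 assignments of arrays to groups, or all orders of the 8 arrays for correlations. The limma step was tested on simulated arrays. Members and gene lists were chosen with earlier results of these data known. All members were named, with the 3 genes of smallest p per list and the 2 genes of highest r to each member. Alternatives changed 1 choice at a time. They concerned the background (none, or offset 50), the values (the authors' log2 values), the scaling (by the median), the filter (none, or detection p under 0.01 on 8 arrays), the summary of a gene (mean over its probes) and the fit (robust eBayes, eBayes with no trend, array weights, a replicate block). Each array was also left out in turn.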

Additional observations from a re-analysis of the deposited data

Results flagged for a closer look

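Among the 4 Agt Tg arrays, Ly6c1 on replicate 3 stood apart from the others, at 10.46 against 10.74 to 10.79, by a gap of 0.851 of the group's range, above Dixon's 95% critical value for 4 samples. Without that array the Ly6c1 difference was -0.24. The mean of the white adipocyte markers on Wt replicate 2, at 12.13, stood above the other Wt arrays, at 11.74 to 11.77, by a gap of 0.914 of the range. Chance flags about 1 in 20 groups, and 58 groups of 4 arrays were examined.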

How the results depend on the processing

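No member reached adjusted p under 0.05 under any alternative that gives a p (the mean of a gene's probes was computed as a value alone), and at unadjusted p under 0.05 the count was 1 except for 0 with eBayes without trend and 0 to 1 when single arrays were left out. Cd34, Dpp4, Pi16, Ly6c1 and Mfap5 kept their direction under all alternatives that could change it. The filters, eBayes with no trend, robust eBayes and the replicate block leave a difference as it is. So does the mean over probes for these genes, which had 1 probe each. Pdgfra turned to -0.075 with median scaling, which moved the median of all genes from 0.014 to -0.12. Relative to that median Pdgfra stayed at 0.047, and Cd248 was at 0.0063 beside -0.026 in the main scaling. Leaving out single arrays gave -0.11 to 0.34 for Pdgfra, -0.39 to 0.0069 for Thy1, -0.19 to 0.11 for Cd248, -0.35 to -0.24 for Ly6c1, -0.33 to -0.02 for Cd34, 0.14 to 0.34 for Dpp4, 0.061 to 0.40 for Pi16 and 0.065 to 0.28 for Mfap5. The cause was not tested.

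Over all probes at unadjusted p under 0.05, 485 were higher and 660 lower, against 80 higher and 1193 lower with median scaling, and 0 of the 1145 passed at adjusted p. Same-numbered arrays of the groups deviated together for replicates 1 (r = 0.33) and 2 (0.39) but not for 3 (-0.037) and 4 (-0.082). Of 8 arrays 4 correlated best with their own number. These values do not settle whether the numbers pair the samples, and the main fit used no block. With the replicate number as a block 1368 probes were at unadjusted p under 0.05 and 0 at adjusted p (lowest limma adjusted p 0.0547, beside 0.224 without it). The block could not change a difference, since each number holds 1 Agt Tg and 1 Wt array. It changes only the error, and the limma unadjusted p of Ly6c1 was 0.0374 with it. The block took the limma unadjusted p of Clec11a from 0.047 to 0.0517, of Pcolce2 from 0.0624 to 0.00269 and of Ebf2 from 0.128 to 0.0228. The dim probes of Dlk1 and Cd34 limit what can be said of these genes.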
